A study of Mus musculus with 2 samples.

Results

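The cells described here were single retinal cells of mouse pups at postnatal day 7 (p7) that carried transcripts of at least 2 of the 5 genes Pcp2, St14, Insm2, Adcy2 and Inhbb and lacked the combinations that mark neighbouring cell types. A cell was taken as a member when it had at least 1000 UMIs (unique molecular identifiers, each counting 1 captured transcript) outside mitochondrial genes and at least 1 UMI in at least 2 of those 5 genes. It also had to show fewer than 2 of the bipolar genes Grm6, Trpm1, Isl1, Grik1 and Gsg1, fewer than 2 of the neurogenic genes Atoh7, Olig2, Dll4, Tfap2d and Mybl1, and fewer than 3 UMIs of the rod genes Nrl and Nr2e3 together. In total, 207 cells met this rule, 109 of 3541 control cells and 98 of 2789 Mettl3-CKO cells with enough UMIs, out of 7103 cells read in all. The members were thus chosen by the UMIs of these 17 genes, and their own levels are given as a description. Genes whose transcripts travel with them are not independent of the choice either.

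The control library pooled 2 retinas labelled Ctrl, whose exact genotype is not given in the sources used here, and the Mettl3-CKO library pooled 2 retinas in which floxed Mettl3 alleles were deleted by Six3-Cre, a Cre line active in retinal progenitor cells. All retinas came from 1 litter at p7, whole retinas were dissociated with papain, and transcripts were read from their 3′ ends. The Mettl3 protein is the enzyme that places m6A, a methyl mark on adenosines, in mRNA. With 1 library per group there was no replicate, so each difference is between these libraries, no p-value is given, and all 95% intervals cover counting error only.

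Only the cells that could be read completely from the matrices were analysed, 3994 control cells with 20955138 UMIs and 3109 Mettl3-CKO cells with 19957693 UMIs. Median depths were 4520.5 and 5207 UMIs per cell. The members held 590855 UMIs in control (median 5573 per cell, 1044 to 15521) and 551171 in Mettl3-CKO (median 5497, 1000 to 20327). Their depths were therefore close, and a count of 3 UMIs over all members of a library, used below as the limit that a count of 0 allows, corresponded to 5.08 and 5.44 counts per 1000000 UMIs (CPM). The libraries shared 11 cell barcodes, none of them a member's. Mitochondrial transcripts took a median of 4.94% of UMIs in control and 3.52% in Mettl3-CKO members.

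Mettl3 itself (ENSMUSG00000022160) had 26 UMIs in the control members and 13 in the Mettl3-CKO members, 44.0 CPM (28.7 to 64.5) against 23.6 CPM (12.6 to 40.3). The log2 ratio was −0.90, and its interval from −1.98 to 0.11 included 0. The floxed segment is not named in the sources used here, and a 3′ read would still count a transcript shortened inside, so this level does not check the label of the library.

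Bipolar cells are the interneurons that carry signals from photoreceptors to the inner retina. Late progenitors give rise to rods and bipolar cells through precursors that share the homeodomain factor Otx2. Prdm1, Crx, Nrl and Nr2e3 then mark the photoreceptor branch, while Grm6 and Trpm1 form the light response of ON bipolar cells. Of the required genes, Insm2 encodes a zinc finger factor, Inhbb the beta B subunit of inhibin and activin, St14 the membrane serine protease matriptase and Adcy2 an adenylyl cyclase. Pcp2 encodes a modulator of G protein signalling that is known from rod bipolar cells.

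A working name of immature bipolar-like cells had been given to this rule, and genes of bipolar cells were divided on it. Vsx1, a homeodomain gene of cone bipolar cells, had no UMI in any member, against 244 CPM in control and 53.2 CPM in Mettl3-CKO cells with bipolar genes. Scgn and Car10, further genes of bipolar cells, also had none, while cells with bipolar genes had 73.0 and 31.0 CPM of Scgn and 357 and 70.9 CPM of Car10. Lhx4 and Bhlhe22, also listed as bipolar genes, were present at 465 and 486 CPM and at 135 and 123 CPM. They lay below cells with bipolar genes and above cells with 3 or more Nrl plus Nr2e3 UMIs. The rule sets aside cells with 2 or more bipolar genes, so a lack of genes that travel with these is partly fixed. Pcp2 and St14 occurred together in 4 control (3.67%) and 8 Mettl3-CKO members (8.16%), where any 2 of the 5 required genes met the rule. The cells are therefore called by their rule, as member cells, and given no cell type name.

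The commonest required gene in the members was Insm2, and the required gene whose level differed most between the libraries was Pcp2, so the reference promoters of these are shown first. Each window holds 300 bases, most of them upstream of a RefSeq transcript start on the GRCm38.p6 assembly, and capitals mark CAGATG, an E-box of the type bound by Neurod factors, which was searched on both strands together with the homeodomain motif TAATCC of the Otx2 and Crx type, the general homeodomain motif TAATTA, and a further E-box, CATATG.
Insm2 promoter, chr12:55598667-55598966, plus strand: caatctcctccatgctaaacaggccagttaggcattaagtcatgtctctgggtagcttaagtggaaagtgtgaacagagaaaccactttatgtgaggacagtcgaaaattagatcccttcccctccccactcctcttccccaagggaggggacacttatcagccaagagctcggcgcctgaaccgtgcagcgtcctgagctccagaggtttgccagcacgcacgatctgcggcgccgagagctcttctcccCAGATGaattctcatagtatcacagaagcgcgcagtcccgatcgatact
Pcp2 promoter, chr8:3625498-3625797, minus strand: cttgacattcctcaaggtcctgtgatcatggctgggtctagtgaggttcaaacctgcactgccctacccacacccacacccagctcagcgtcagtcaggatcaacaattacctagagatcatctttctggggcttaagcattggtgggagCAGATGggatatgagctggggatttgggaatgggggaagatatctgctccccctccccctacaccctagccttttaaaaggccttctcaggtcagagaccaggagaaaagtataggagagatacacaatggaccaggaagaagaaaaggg
The Insm2 window held 1 CAGATG and none of the other motifs. Among the 4 annotated Pcp2 windows, which overlap each other, 2 held the same CAGATG, 1 held a TAATTA, and 1 held none of the 4 motifs. The windows of Adcy2 (chr13:68999492-68999791) and Inhbb (chr1:119422199-119422498) held none of the 4 motifs, and St14 is named only. Among 32851 promoter windows of 27025 genes, 17.2% held CAGATG and 7.06% held TAATCC, whereas 5.29% held TAATTA and 3.91% held CATATG. These matches describe the reference sequence.

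The required genes lie on separate chromosomes of GRCm38: Insm2 (ENSMUSG00000045440) at chr12:55599427-55602086, Pcp2 (ENSMUSG00000004630) at chr8:3623371-3625545, St14 (ENSMUSG00000031995) at chr9:31089402-31131853, Inhbb (ENSMUSG00000037035) at chr1:119415465-119422248 and Adcy2 (ENSMUSG00000021536) at chr13:68620043-68999541. Insm2 and Inhbb overlapped no other annotated gene, while Pcp2, St14 and Adcy2 did, and the strand setting of the counting is not given in the sources used here. Most members met the rule at its minimum. Exactly 2 of the 5 required genes were seen in 75 control members (68.8%) and 54 Mettl3-CKO members (55.1%), and all 5 in 1 member of each library. Insm2 had a UMI in 98 control (89.9%) and 82 Mettl3-CKO members (83.7%), at 433 CPM (382 to 490) and 396 CPM (345 to 452). Inhbb was seen in 53.2% and 55.1% of members at 152 and 165 CPM. The commonest pair was Insm2 with Inhbb, in 52 control (47.7%) and 44 Mettl3-CKO members (44.9%). St14 was at 98.2 and 103 CPM and Adcy2 at 76.2 and 107 CPM. Pcp2, the first gene of the working name, was the rarest in control, with a UMI in 18 members (16.5%) and 38.9 CPM (24.7 to 58.4). In the Mettl3-CKO library it was seen in 34 members (34.7%) at 149 CPM (118 to 185).

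The limit on the rod genes removed far more cells than the other limits. At least 2 required genes were seen in 864 control cells (24.4% of those with enough UMIs) and 800 Mettl3-CKO cells (28.7%). Of these, 733 (84.8%) and 689 (86.1%) had 3 or more Nrl plus Nr2e3 UMIs, whereas at least 2 bipolar genes were seen in 13 and 8 of them and at least 2 neurogenic genes in 23 and 28. Among the members, 45 control and 36 Mettl3-CKO cells had no Nrl or Nr2e3 UMI, 34 and 30 had 1, and 30 and 32 had 2. Cells just outside the limit, with 3 or 4 such UMIs and all other conditions met, numbered 68 in each library, and 529 and 469 cells had 10 or more.

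Some genes had close levels on both sides of that limit and others did not. Otx2 was at 3991 CPM in control and 3752 CPM in Mettl3-CKO members with 2 Nrl plus Nr2e3 UMIs, and at 3961 and 3645 CPM in the cells with 3 or 4. Neurod4, a proneural factor of bipolar and photoreceptor precursors, went down from 2486 and 2950 CPM in members without Nrl or Nr2e3 to 2066 and 1974 CPM with 2 UMIs, 1765 and 1954 CPM with 3 or 4, and 599 and 588 CPM with 10 or more. Gngt2, which encodes the gamma subunit of cone transducin, went the other way, from 1443 and 1792 CPM in members without Nrl or Nr2e3 to 2870 and 3108 CPM with 2 UMIs, 2729 and 3385 CPM just outside, and 3863 and 3967 CPM at 10 or more. Gap43, a growth cone protein, was at 74.3 and 67.4 CPM in members with 2 rod gene UMIs and at 23.6 and 18.4 CPM just outside. Rcvrn, which encodes the photoreceptor calcium sensor recoverin, was at 189 CPM (126 to 273) in control and 405 CPM (313 to 515) in Mettl3-CKO members with 2 rod gene UMIs, and at 126 CPM (93.0 to 167) and 98.0 CPM (67.1 to 138) just outside. For Pcp2, the control level was 40.5 CPM just inside and 160 CPM just outside the limit, while the Mettl3-CKO level was 141 and 187 CPM.

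**Figure D1:**
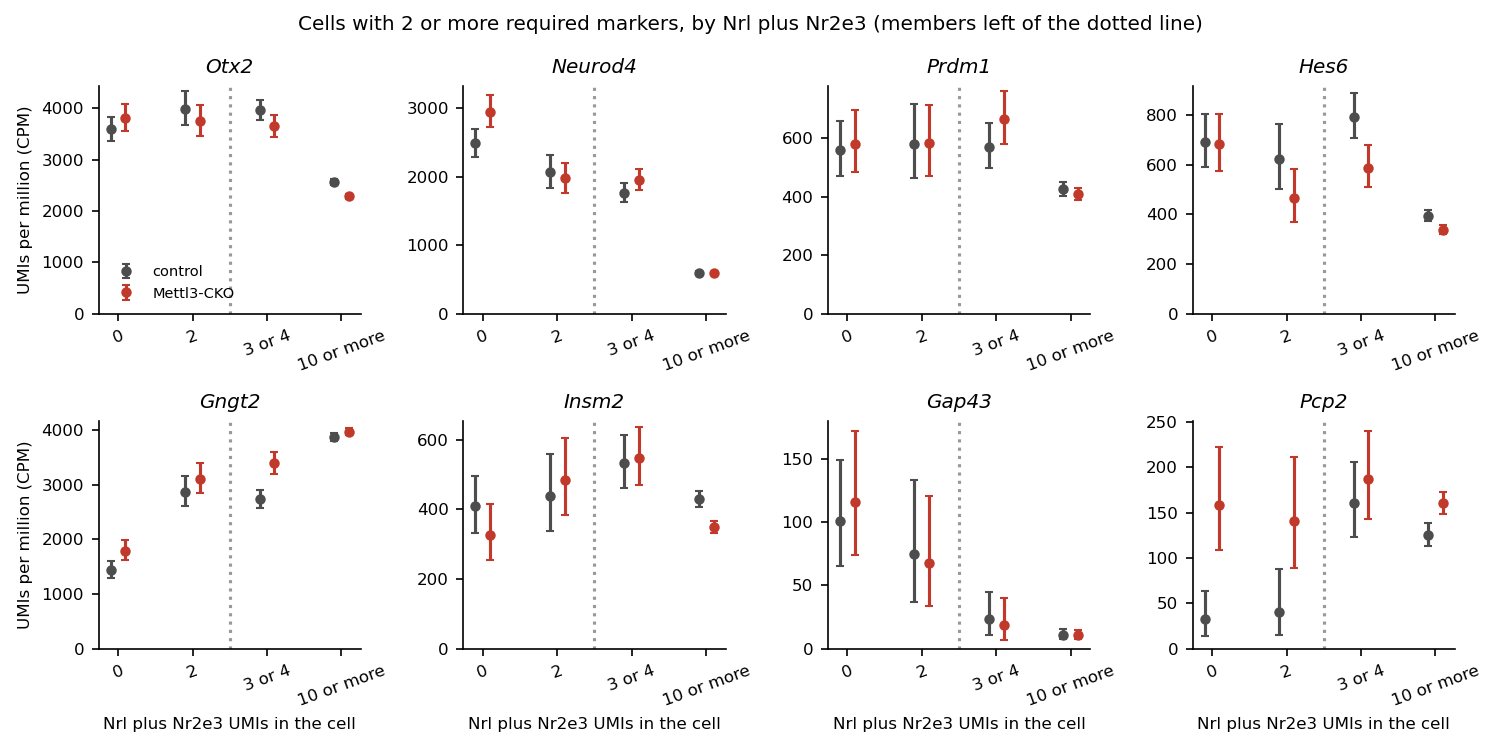
Level in CPM (linear axes from 0) of 8 genes in cells with 2 or more required genes, by the number of Nrl plus Nr2e3 UMIs in the cell; points are control (grey) and Mettl3-CKO (red), bars 95% counting intervals, and cells left of the dotted line are members. Neurod4 steps down from 2486 and 2950 CPM to 599 and 588 CPM, Gngt2 steps up, and Otx2 in control is at 3991 and 3961 CPM just inside and just outside the limit.

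The other edge of the rule was the number of required genes. Cells with exactly 1 of them that met all other conditions, 161 control and 152 Mettl3-CKO, had 2340 and 1933 CPM of Otx2, against 3677 and 4013 CPM in members with exactly 2. Their Insm2 was at 192 and 143 CPM, against 444 and 329 CPM in those members, but Insm2 is a required gene, so this follows partly from the rule. Hes6 was close on both sides, at 697 and 564 CPM against 720 and 602 CPM. Gap43 was at 94.1 CPM against 89.7 CPM in control and at 44.2 CPM against 91.0 CPM in Mettl3-CKO.

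Free RNA was examined in cells that should lack the required genes. None of the 22 control and 21 Mettl3-CKO microglia (at least 4 of 8 marker genes) met the rule, which allows shares of up to 13.6% and 14.3%. Of 545 control and 549 Mettl3-CKO cells with at least 8 of 12 Müller marker genes, 1 in each library did. At least 2 required genes were seen in 15 and 16 of these Müller cells, before the other limits of the rule. Those Müller cells carried Insm2 in 4.22% and 6.92% and Pcp2 in 1.65% and 3.46% of cells, at median depths of 9519 and 9624 UMIs. The shares in the shallower members were 89.9% and 83.7% for Insm2 and 16.5% and 34.7% for Pcp2. The rule asks for these genes, so the shares in members are partly set by it and cannot measure free RNA.

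The conditions of the same rule gave 3 sets of cells for comparison within each library. The differentiating bipolar class had at least 2 of the bipolar genes (112 control and 29 Mettl3-CKO cells), the committed neurogenic class at least 2 of the neurogenic genes (199 and 245 cells), and the Nrl/Nr2e3 class at least 3 UMIs of these rod genes (2072 and 1445 cells). A gene was counted as higher or lower when it differed at least 2-fold in the same direction in both libraries, among genes with at least 100 UMIs over the cells compared. A gene that reached 100 UMIs through the class alone could not come out higher in members.

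The precursor factors were higher in the members than in these 3 classes. Otx2 was at 3722 CPM (3568 to 3881) in control and 3701 CPM (3542 to 3865) in Mettl3-CKO members. It stood at 2580 CPM in control bipolar cells, 3135 and 3043 CPM in neurogenic cells, and 2085 and 2047 CPM in Nrl/Nr2e3 cells. An Otx2 UMI was seen in 107 of 109 control and all 98 Mettl3-CKO members. Neurod4 was at 2249 CPM (2130 to 2374) and 2527 CPM (2396 to 2664), above all 3 classes. Bipolar cells had 754 and 709 CPM of it, and Nrl/Nr2e3 cells 534 and 582 CPM. Neurod1, a bHLH factor of photoreceptors, was at 4920 CPM (4743 to 5102) and 4371 CPM (4198 to 4549), compared with 501 and 647 CPM in bipolar cells and 3998 and 3826 CPM in Nrl/Nr2e3 cells. The intervals of the members for Otx2, Neurod4 and Neurod1 lay above those of all 3 classes in each library. The levels were not particular to the members. Cluster 4, described below, of whose cells 22.5% were members, had 3907 CPM of Otx2 and 2936 CPM of Neurod4 over both libraries. Cluster 1, with 10.0% members, had 4117 CPM of Otx2 and 1525 CPM of Neurod4.

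Factors of the photoreceptor branch were present below or above the Nrl/Nr2e3 class. Crx was at 653 CPM (589.7 to 722) and 684 CPM (617 to 757) in members, lower than in Nrl/Nr2e3 cells at 894 and 831 CPM and higher than in bipolar cells at 294 and 257 CPM. Prdm1, a repressor that favours photoreceptor over bipolar fate, reached 533 CPM (476 to 595) and 599 CPM (536 to 667), higher than the 89.0 and 93.0 CPM of bipolar cells and the 326 and 354 CPM of Nrl/Nr2e3 cells. Lhx4, a LIM homeodomain gene, was between the classes at 465 and 486 CPM, against 773 and 1143 CPM in bipolar and 104 and 145 CPM in Nrl/Nr2e3 cells. Of 22 lineage factors, 16 could be compared with bipolar cells. Here 4 were higher in members (Neurod1, Neurod4, Crx and Prdm1) and 7 lower (among them Vsx1, Prdm8, Bhlhe23, Zfhx4, Sall3 and Fezf2), where 3.88% of all 4283 genes compared were higher and 4.44% lower. Vsx1, Bhlhe23 and Fezf2 had at most 3 UMIs in either library's members. They reached the count minimum through the bipolar class, so they could not come out higher. The rule also limits the genes that chose this class, so the count of lower factors is a description. Against the neurogenic class, 1 of 14 factors was higher (Prdm1) and 2 were lower (among them Irx5), with 2.76% and 4.71% of all 6927 genes. Against Nrl/Nr2e3 cells, 4 of 16 were higher (Neurod4, Lhx4, Bhlhe22 and Zeb2) and Samd7 was lower, with 2.24% and 4.97% of all 10099 genes.

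**Figure D2:**
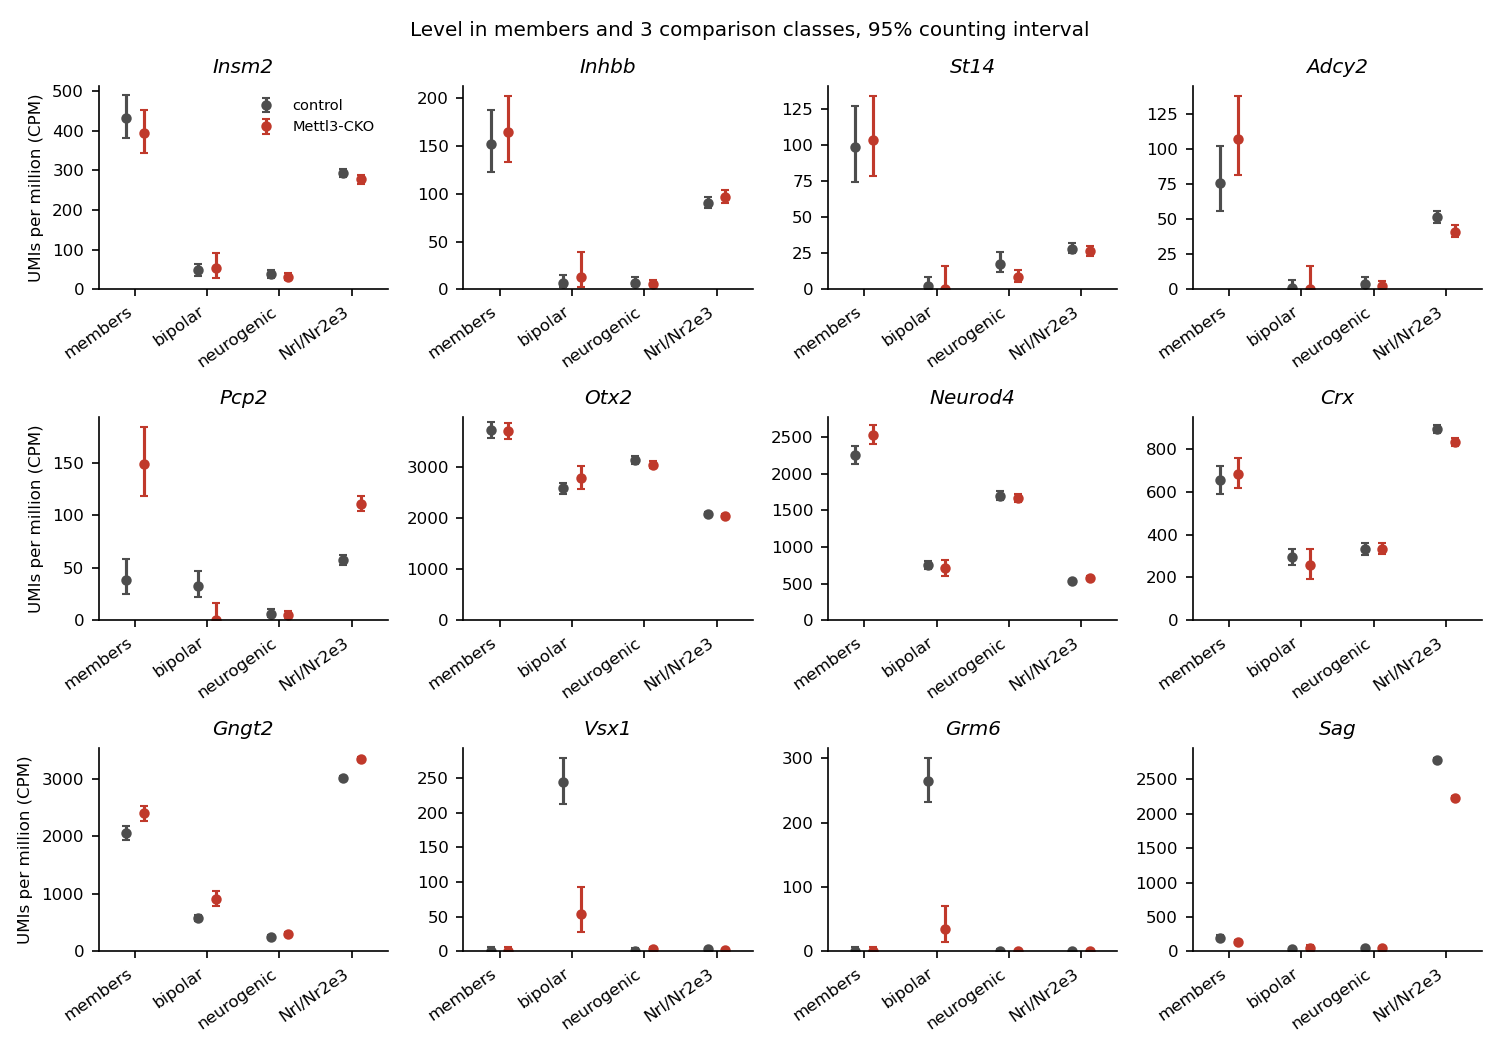
Level in CPM (linear axes from 0) of 12 genes in members and in the differentiating bipolar, committed neurogenic and Nrl/Nr2e3 classes; points are control (grey) and Mettl3-CKO (red) with 95% counting intervals. The first 5 panels are required genes and Grm6 is limited by the rule. Among the sets shown, Otx2 and Neurod4 are highest in members, and Vsx1 is at 0 there. Sag, of which 1 control member held 66 of 114 UMIs, is at 193 and 132 CPM in members. It is at 2783 and 2230.5 CPM in Nrl/Nr2e3 cells.

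Rod transcripts were scarce in the members. All 9 rod markers were lower than in Nrl/Nr2e3 cells, where 4.97% of all 10099 genes were lower. Their median log2 difference was −4.94 in control and −3.55 in Mettl3-CKO, where the median of all genes was −0.05 in each. The limit on Nrl and Nr2e3 selects against such transcripts. Of the UMIs of Sag, the rod arrestin gene, 66 of 114 in control and 22 of 73 in Mettl3-CKO came from 1 member each. With these cells its level was 193 CPM (159 to 232) and 132 CPM (104 to 167), above the 30.8 and 48.7 CPM of bipolar cells and below the 2783 and 2230.5 CPM of Nrl/Nr2e3 cells. The 3 rod markers that could be compared with bipolar cells, and the 4 compared with neurogenic cells, were all higher in members. Over all genes in these comparisons, 3.88% and 2.76% were higher. Gngt2 was at 2053 CPM (1939 to 2172) and 2398.5 CPM (2271 to 2531), against 250 and 310 CPM in neurogenic cells. For the cone opsin gene Opn1sw few cells counted. Its 172 control and 106 Mettl3-CKO UMIs came from 5 and 10 members, 71 and 40 of them from 1 cell each.

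Genes of bipolar signalling were low. Of the 18 listed, 5 had no UMI in any member. Of the 4 that could be compared with bipolar cells, Gnao1, Pcp4 and Car10 were lower, against 4.44% of all 4283 genes. The fourth, Gnb3, a G protein beta subunit of cones and ON bipolar cells, was at 697 CPM (632 to 768) and 777 CPM (705 to 854) in members, against 838 and 532 CPM in bipolar cells and 142 and 161 CPM in neurogenic cells. Pcp4, a calmodulin-binding protein, had 1 UMI in control and 20 in Mettl3-CKO members, 13 of the latter in 1 cell. Likewise Zfhx4, a zinc finger homeodomain gene of bipolar cells, had 2 and 40 UMIs, 16 of the latter in 1 cell. Car10, with no UMI in members, and Pcp4, with 544 and 231 UMIs in bipolar cells, reached the count minimum through that class. The rule limits the genes that chose the class, so these lower levels are descriptions.

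Synaptic genes were intermediate. Against the neurogenic class, 6 of 13 release and ribbon genes were higher and none lower, where 2.76% of all 6927 genes were higher and 4.71% lower. The higher genes were Snap25, Stx3, Cplx3, Rims2, Syp and Rab3a. Snap25, part of the vesicle fusion machinery, was at 344 CPM (298 to 394) and 406 CPM (355 to 463) in members, 82.2 and 94.5 CPM in neurogenic cells and 857 and 802 CPM in Nrl/Nr2e3 cells. Against Nrl/Nr2e3 cells, 4 of 17 were lower, among them the vesicular glutamate transporter gene Slc17a7 at 16.9 and 47.2 CPM against 155 and 167 CPM. Of all 10099 genes compared with Nrl/Nr2e3 cells, 4.97% were lower.

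Some growth-related genes were higher in members than in the Nrl/Nr2e3 class. Gap43 was at 96.5 CPM (73.1 to 125) and 85.3 CPM (62.7 to 113) in members, 9.71 and 9.30 CPM in Nrl/Nr2e3 cells, 13.7 and 13.3 CPM in bipolar cells, and 55.4 and 56.4 CPM in neurogenic cells. It was seen in 30 of 109 control and 23 of 98 Mettl3-CKO members. Of 14 neurite and microtubule genes compared with Nrl/Nr2e3 cells, 4 were higher (Gap43, Stmn1, Tubb3 and Tubb2b) and 10 were not past 2-fold. Over all 10099 genes, 2.24% were higher. Of 12 neurite and microtubule genes compared with bipolar cells, 2 were higher (Gap43 and Dpysl3) and 6 lower. The lower genes included Tubb3 at 425 and 394 CPM against 1008 and 1263 CPM. Over all 4283 genes, 3.88% were higher and 4.44% lower than in bipolar cells.

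Several genes of earlier stages were below the neurogenic class. Of all 6927 genes compared with that class, 4.71% were lower. Of 9 Notch pathway genes compared with it, 5 were lower (Hes1, Hes5, Dll1, Dll3 and Lfng). The Notch effector Hes5 was at 72.8 CPM (52.7 to 98.0) and 36.3 CPM (22.2 to 56.0), against 487 and 520 CPM. Of 13 G2/M genes, 8 were lower, and of 9 S phase genes 2 were, with a median log2 difference of −0.38 in control and −1.10 in Mettl3-CKO. Hes6, which counteracts Hes1, was at 684 and 633 CPM in members and at 1247 and 1325 CPM in neurogenic cells, less than 2-fold apart in control.

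The genes furthest from each class are named by a fixed rule that left out the 17 genes of the selection. Against bipolar cells the highest were Chgb, Ece1, Rreb1, Plxna2, Zbtb18, Prom1, Enc1, Lmo1, Opn1sw and Casz1. For Opn1sw the difference in control turned to −1.43 among members of cluster 4 and −0.32 among those of cluster 1, the clusters that held most members. Chgb, encoding the secretory granule protein chromogranin B, was at 782 CPM in control and 704 CPM in Mettl3-CKO members against 37.6 and 26.6 CPM, log2 differences of 4.38 (3.87 to 4.93) and 4.73 (3.59 to 6.18). Casz1, a zinc finger factor of late retinal neurogenesis, was at 762 and 720.3 CPM against 30.8 and 62.0 CPM, differences of 4.63 and 3.54. The lowest were Fezf2, Trnp1, Nyap2, Lin7a and Pcp4, each with at most 3 UMIs in either library's members except Pcp4 in Mettl3-CKO.

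Against neurogenic cells the highest included Egflam, Cadm2, Ece1, Otop3, Gngt2, Rbp3, Chgb, Cited1 and Dmd. Several of these serve photoreceptors and their synapse. Egflam, which encodes pikachurin at the ribbon synapse, was at 96.5 and 109 CPM in members against 8.34 and 10.1 CPM, differences of 3.53 (2.67 to 4.49) and 3.43 (2.69 to 4.22). Rbp3, the interphotoreceptor retinoid-binding protein, was at 259 and 269 CPM against 36.9 and 33.8 CPM. Cited1 came from 12 and 10 members, with 19 of 33 and 23 of 39 UMIs in 1 cell each. The lowest were Neurog2, Miat, Adamts1, Tbx3 and Rbfox2. Neurog2, a proneural factor of cycling and newly committed progenitors, had 1 and 2 UMIs in members, against 342 and 353 CPM in neurogenic cells.

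Against Nrl/Nr2e3 cells the highest were Gap43, Krt12, Angpt1, Serping1, Actc1, Hs3st1, Rnf182, Gadd45g, Tmcc3 and Nlgn1. The log2 difference for Gap43 was 3.31 (2.81 to 3.80) and 3.20 (2.65 to 3.73). Angpt1, a ligand of the endothelial Tie2 receptor, was at 59.2 and 56.2 CPM against 6.30 and 7.20 CPM, differences of 3.23 (2.59 to 3.86) and 2.97 (2.30 to 3.60). Gadd45g, a stress and differentiation gene, was at 1054 and 777 CPM against 122 and 134 CPM. Among the lowest were Cngb1, Cnga1, Pde6b and Reep6, all of rods. Cngb1, a subunit of the rod cyclic nucleotide-gated channel, had 3 and 4 UMIs in members against 404 and 421 CPM, differences of −6.31 (−8.59 to −4.77) and −5.86 (−7.73 to −4.50).

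**Figure D3:**
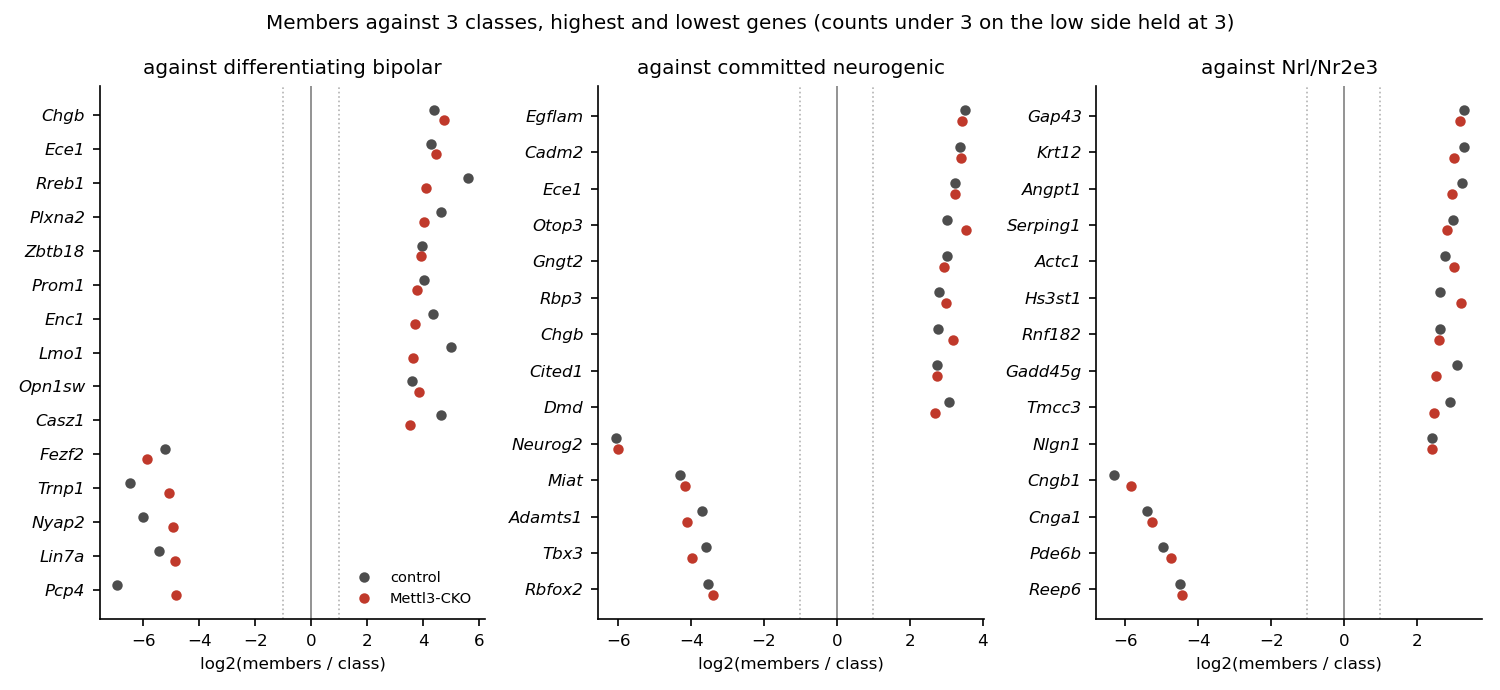
Log2 of the level in members over the level in each class for the highest and lowest genes named in the text, in control (grey) and Mettl3-CKO (red); dotted lines mark 2-fold, and counts under 3 on the low side were held at 3. Genes were named only if both libraries had the same direction, so their points lie on the same side of 0 by choice. The values run from −6.93 for Pcp4 in control to 5.59 for Rreb1 in control, both against bipolar cells.

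Compared with all other cells together, 1.02% of 12033 genes were higher in members and 5.38% lower. The 15 highest were Angpt1, Krt12, Dusp4, Fabp7, Tmem158, Kcnc2, Hspb1, Tpbgl, Neurod4, Tmcc3, Robo2, Meis2, Gap43, Enc1 and Snx22. Fabp7, a brain fatty acid-binding protein, was at 8063 CPM in control and 5332 CPM in Mettl3-CKO members against 1445 and 1338 CPM elsewhere, log2 differences of 2.48 (2.44 to 2.52) and 2.00 (1.94 to 2.05). Robo2, a receptor for Slit guidance cues, was at 381 and 377 CPM against 106 and 108 CPM. Meis2, a homeodomain cofactor, was at 1618 and 1515 CPM against 398 and 433 CPM.

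The members did not form 1 cluster. When all cells with enough UMIs were clustered into 23 clusters, 102 members (49.3%) fell into cluster 4 and 66 (31.9%) into cluster 1. Cluster 4 was led by Angpt1, Dusp4, Gap43, Fabp7 and Gem, and 22.5% of its 454 cells were members. Cluster 1 was led by St14, Ece1, Rtl8a, Adcy2 and Enc1, with Insm2, Pcp2 and Inhbb also among its leading genes, and 10.0% of its 658 cells were members. Of its other cells, 322 of 338 in control and 237 of 254 in Mettl3-CKO were set aside by Nrl and Nr2e3. A further 17 members (8.21%) lay in cluster 14 and 8 in cluster 13, which was led by the cone genes Arr3, Pde6h and Opn1sw. Only 1 lay in cluster 10, led by the bipolar genes Grm6, Car10 and Grik1. The required genes chose the cells and also entered the clustering, so these placements are descriptions.

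The members of the 2 main clusters differed in a few named genes. Of 1735 genes compared, 19 were at least 2-fold higher in both libraries in the members of cluster 4 and 12 in those of cluster 1. Sox9, a factor of progenitors and Müller glia, was at 583 CPM in control and 478 CPM in Mettl3-CKO members of cluster 4 and at 38.5 and 50.4 CPM in those of cluster 1. Gadd45g was at 1415 and 1194 CPM against 449 and 223 CPM, and the neuronal tubulin gene Tubb3 at 580.1 and 460.2 CPM against 205 and 159 CPM. Higher in cluster 1 were the photoreceptor genes Gngt2, at 3110.3 and 2774 CPM against 1181 and 1308 CPM, Rom1, at 712 and 598 CPM against 269 and 242 CPM, and Rpgrip1, at 705 and 670.1 CPM against 216 and 311 CPM. Otx2 was at 3930.3 and 4052 CPM in cluster 4 and 4226 and 3682 CPM in cluster 1. Median depth was 6040 and 5771 UMIs per member in cluster 4 and 4403.5 and 4745 in cluster 1.

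Markers of other retinal cells were checked over whole lists. No member had 3 of the 8 microglial genes or 3 of the 8 vascular and blood genes. Ganglion cell markers were at 0 for 6 of 7 genes in each library. At least 3 of the 9 cone genes were seen in 3 control and 7 Mettl3-CKO members, and at least 3 of the 9 rod genes in 7 and 9. At least 3 of the 12 amacrine and horizontal genes were seen in 2 control and 6 Mettl3-CKO members, with up to 7 in a Mettl3-CKO member. Müller markers were common, with at least 3 of 12 in 59 control and 47 Mettl3-CKO members, but Aqp4 was at 0 and the summed level, 1709 and 1724 CPM, came mainly from Apoe at 748 and 1023 CPM and Sox9 at 428 and 281 CPM. Among G2/M genes, 1 control member carried all 15, and the largest number in a Mettl3-CKO member was 3. The part of these cells in the results was not tested beyond the settings in which they were left out.

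The share of members was then compared between the libraries. Their share was 3.08% (2.53 to 3.70%) in control and 3.51% (2.86 to 4.27%) in Mettl3-CKO, a ratio of 1.14 whose interval from 0.873 to 1.49 included 1. With each cell thinned to 1000 UMIs, the shares were 2.20% and 3.26% and the ratio 1.48 (1.10 to 2.00). Thinned to 3000 UMIs, among 2887 control and 2446 Mettl3-CKO cells that were deep enough, it was 1.42 (1.09 to 1.85). Thinning also lowers the Nrl and Nr2e3 counts, so cells above that fixed limit can enter. At 3000 UMIs there were 97 control and 117 Mettl3-CKO members, against 109 and 98 without thinning. The thinned shares are thus not of the same cells. With at least 3 required genes, 34 control (0.960%) and 44 Mettl3-CKO cells (1.58%) remained, a ratio of 1.64 (1.05 to 2.56). Among cells with at least 4000 UMIs the ratio was 1.02 (0.761 to 1.38). At that same depth, the ratio was 0.874 (0.612 to 1.25) for Mettl3-CKO cells with a Xist UMI and 1.30 (0.889 to 1.90) for those without, so its direction turned with Xist. Without the limit on Nrl and Nr2e3 it was 1.17 (1.08 to 1.28), from 828 control and 764 Mettl3-CKO cells. The same ratio was 0.329 (0.219 to 0.493) for bipolar, 1.56 (1.31 to 1.87) for neurogenic and 0.885 (0.846 to 0.926) for Nrl/Nr2e3 cells. Spread between animals cannot be told apart from genotype with 1 pool per group.

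**Figure D4:**
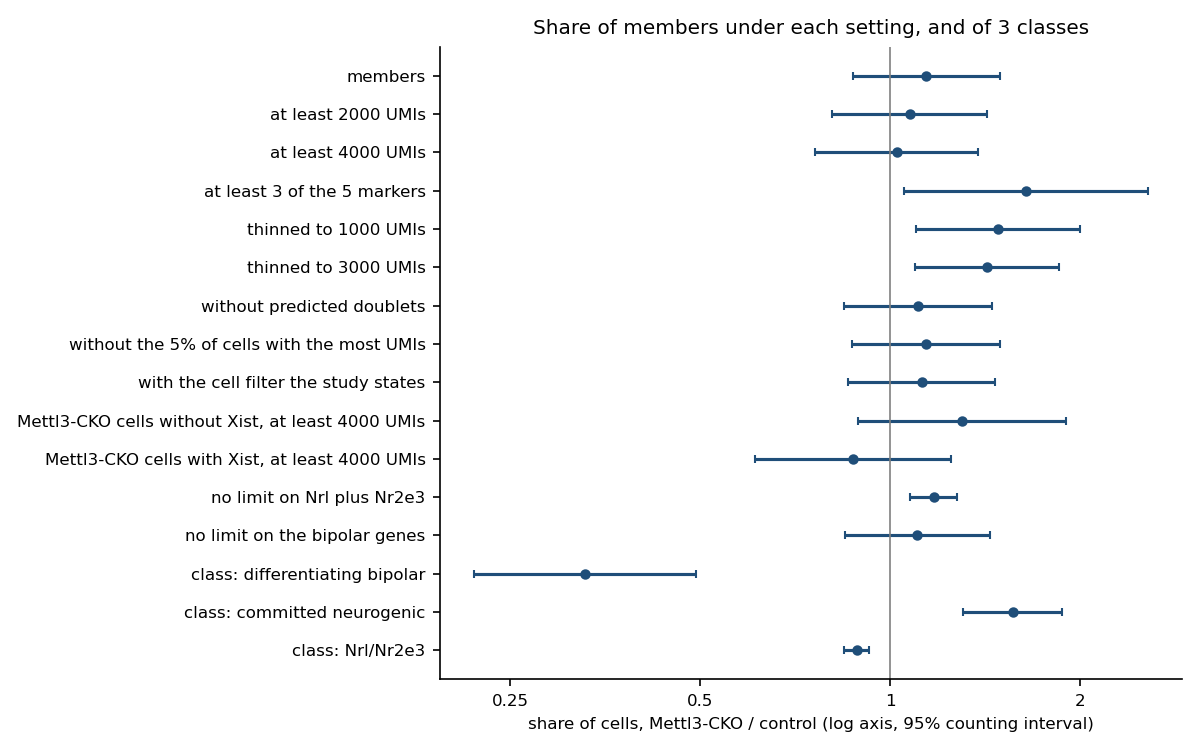
Ratio of the share of cells in Mettl3-CKO to that in control, on a log axis with 95% counting intervals, for the members under each setting and for the 3 comparison classes; the vertical line marks 1. The main ratio is 1.14, settings of the rule range from 0.874 (Mettl3-CKO cells with Xist, at least 4000 UMIs) to 1.64 (at least 3 of the 5 markers), and the bipolar class lies at 0.329.

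Levels in the members were also compared between the libraries. Of 2253 genes with at least 100 UMIs over both libraries and a UMI in at least 10% of members of 1 library, 48 (2.13%) were at least 1.5-fold higher in Mettl3-CKO and 57 (2.53%) at least 1.5-fold lower, and the median log2 ratio was −0.02. Members with at least 3 required genes gave 19 higher and 23 lower of 744 genes, those of cluster 4 gave 15 and 32 of 1103, and those of cluster 1 gave 14 and 13 of 431. The most extreme genes were Xist and Tsix, the X inactivation transcripts. Xist had no UMI in control members and 1034 in Mettl3-CKO members, and was seen in 54 of the 98 Mettl3-CKO members. With the control count set to 3, Xist was 369-fold higher, and the lower limit of its log2 ratio was 8.23. Tsix had 0 and 107 UMIs, 38.2-fold higher in the same way, with a lower limit of 4.93 on the log2 ratio. The Y-linked genes summed to 286 CPM in control and 125 CPM in Mettl3-CKO members. The make-up of the pools by sex and the genotype cannot be told apart in this comparison.

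Pcp2 had the highest ratio after Xist and Tsix. It had 23 UMIs in 18 control members, with at most 3 in 1 cell, and 82 UMIs in 34 Mettl3-CKO members, with at most 11 in 1 cell, a log2 ratio of 1.93 (1.25 to 2.67). Since Pcp2 also selects members, the level was read again in the 97 control and 87 Mettl3-CKO members that had at least 2 of the other 4 required genes. There it had 9 and 51 UMIs, 17.02 and 100.3 CPM, a log2 ratio of 2.56 (1.52 to 3.77). The same reading gave log2 ratios of 0.13 (−0.66 to 0.92) for St14, 0.37 (−0.05 to 0.80) for Insm2, 0.66 (−0.14 to 1.48) for Adcy2 and 0.33 (−0.26 to 0.93) for Inhbb, each with an interval that included 0. In Nrl/Nr2e3 cells Pcp2 was at 57.6 CPM in control and 111 CPM in Mettl3-CKO, a log2 ratio of 0.95 (0.80 to 1.10). In the bipolar class it went the other way, from 29 UMIs (33.1 CPM) in control to 0 in Mettl3-CKO. The log2 ratio there had an upper limit of −0.92. That class was not alike in the libraries, with Grm6 at 265 and 35.4 CPM and Isl1 at 1050.5 and 306 CPM. Its Grik1 was at 290 and 297 CPM and its Gsg1 at 475 and 758 CPM. Whether it held the same kinds of bipolar cell in both libraries was not tested. In neurogenic cells the Pcp2 ratio was −0.31 (−1.73 to 1.12). In Mettl3-CKO members with and without Xist, the Pcp2 log2 ratio to all control members was 2.05 and 1.77. The ratio was 0.93 among members of cluster 4, from 8 control and 13 Mettl3-CKO UMIs. Among those of cluster 1 it was 1.37, from 13 and 30 UMIs. Both rest on few UMIs and lie below the ratio over all members. The rest of the 23 control and 82 Mettl3-CKO UMIs lay in members outside these clusters.

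Other genes at the upper end were Dot1l, Gngt1, Platr17, Cdhr1, Apba2, Ckap4 and Guk1. Dot1l, a histone methyltransferase gene, had 32 UMIs in control and 74 in Mettl3-CKO members, 54.2 and 134 CPM, a log2 ratio of 1.31 (0.69 to 1.96), and was seen in 23.9% and 40.8% of members. Ckap4, an endoplasmic reticulum membrane protein and an m6A-tagged gene that the study picked for its level in mutant cells of these samples, was at 110.01 CPM (84.9 to 140.2) and 203 CPM (167 to 245), a log2 ratio of 0.89 (0.43 to 1.35). The Ckap4 ratio was 0.92 in neurogenic and 0.67 in Nrl/Nr2e3 cells. Cdhr1, a photoreceptor cadherin, had a log2 ratio of 0.91 (0.34 to 1.503), Apba2, a synaptic adaptor, 0.89 (0.37 to 1.41), and the guanylate kinase gene Guk1 0.79 (0.33 to 1.26). Gngt1, the rod transducin gamma gene, rested on 12 control and 6 Mettl3-CKO members, with 18 of 36 and 31 of 69 UMIs in 1 cell each, and its ratio of 1.04 turned to −1.36 among members of cluster 4.

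At the lower end were, among others, Hist1h2ae, Ndufa4l2, Nol4, Parp6, Mn1, Rgs16, Cnot7, Fam162a and Chrac1. Among members of cluster 1 the log2 ratios of Nol4 and Parp6 turned to 0.85 and 0.46. Hist1h2ae, a replication-dependent histone gene, had 93 control and 17 Mettl3-CKO UMIs, but 75 of the 93 came from 1 control member. Without the cells that carried 5 or more G2/M genes its log2 ratio went from −2.35 to −0.02. Ndufa4l2, a hypoxia-responsive mitochondrial gene, had 115 UMIs in 34 control members and 42 in 23 Mettl3-CKO members, 195 and 76.2 CPM, a log2 ratio of −1.35 (−1.90 to −0.83). Mn1 had 95 and 42 UMIs, a ratio of −1.08 (−1.64 to −0.54), and in neurogenic cells its ratio was 0.84 (0.43 to 1.26). Rgs16, a regulator of G protein signalling, was at 223 and 107 CPM, a ratio of −1.06 (−1.53 to −0.61), with −0.26 in neurogenic and 0.01 in Nrl/Nr2e3 cells. Cnot7, a deadenylase subunit, was seen in 56.9% of control and 34.7% of Mettl3-CKO members at 183 and 88.9 CPM, a ratio of −1.04 (−1.56 to −0.54).

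**Figure D5:**
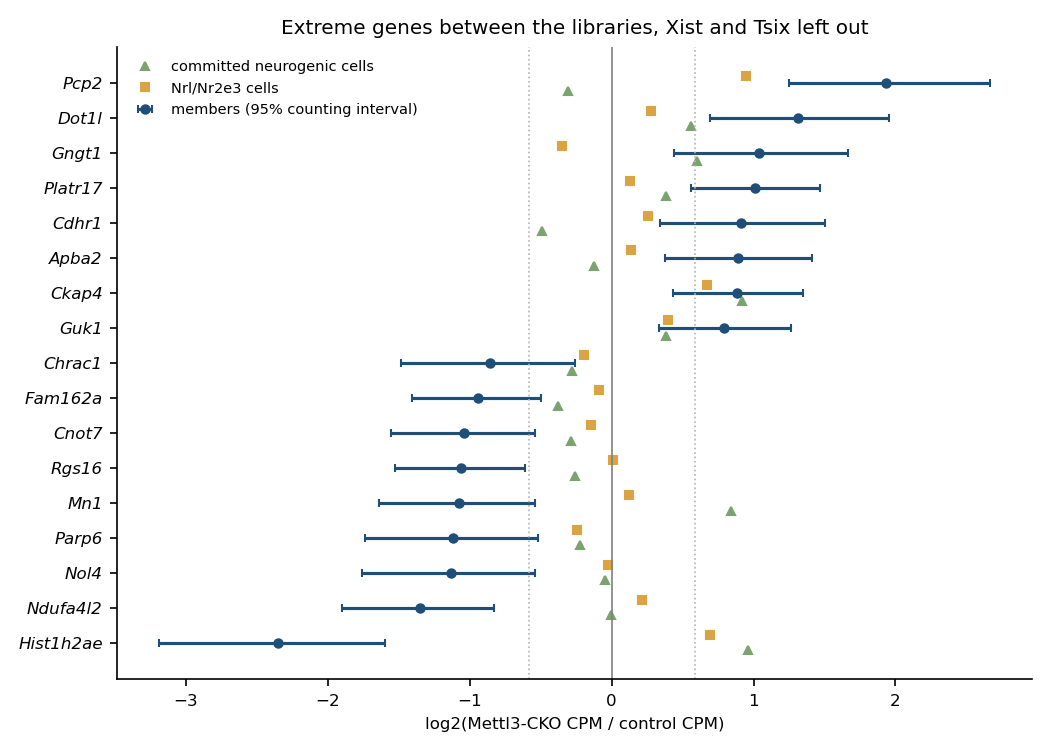
Log2 of the Mettl3-CKO level over the control level for the highest and lowest genes named in the text in members, apart from Xist and Tsix (blue points with 95% counting intervals), with the same ratio in Nrl/Nr2e3 cells (yellow squares) and committed neurogenic cells (green triangles); dotted lines mark 1.5-fold. Pcp2 is highest at 1.93, Hist1h2ae lowest at −2.35, and for Mn1 and Hist1h2ae both other classes lie on the other side of 0.

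Gene lists described the members more broadly. None of the 9 lineage factors that passed the filter was past 1.5-fold, with a median log2 ratio of 0.06. The same held for 11 synaptic genes (median 0.03), 7 neurite genes (−0.11), 10 immediate early and dissociation response genes (−0.06), 4 Notch genes (−0.10), 3 p53 targets (−0.01) and 2 m6A writer genes (−0.11). The study chose 8 m6A-tagged genes that were higher in mutant progenitor and Müller clusters of these samples, so the list is not independent evidence of a direction, and 4 of the 8 passed the filter. Of these only Ckap4 was past 1.5-fold, and the median was −0.03. In single lists 1 gene each was past 1.5-fold. These were Gngt1 among 3 rod markers, higher, and Opn1sw among 2 cone markers, Hmgb2 of the G2/M list and Sox9 among 4 Müller markers, lower. Sox9 was at 428 CPM (377 to 484) in control and 281 CPM (239 to 329) in Mettl3-CKO members, a log2 ratio of −0.61. Among members of cluster 4 it was at 583 and 478 CPM. Among those of cluster 1 it was at 38.5 and 50.4 CPM, from 6 and 7 UMIs. Hmgb2, a chromatin protein of cycling cells, was at 697 and 443 CPM, a ratio of −0.66, and 98 of its 412 control UMIs came from 1 member.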

How the data were processed

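Whole-retina cells of 1 control and 1 Mettl3-CKO library (10x Genomics 3′ chemistry) were analysed. Per the labels and the submitters' processing notes, the authors deposited UMI counts per gene and cell, made with Cell Ranger 3.1.0 on mm10 and analysed with Seurat 3.1. The study states a filter of over 200 genes and under 20% mitochondrial counts; 237 control and 86 Mettl3-CKO cells did not meet it, 1 of them a member. The matrices were held only in part: 3994 of 5995 control and 3109 of 6992 Mettl3-CKO barcodes were complete, and the rest were not analysed here, so shares refer to these cells.

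The members and gene lists were chosen with earlier results of these data known. For each library, the UMIs of a gene in all cells of 1 class were added up and divided by the total of those cells outside mitochondrial genes (CPM). Levels and shares carry exact Poisson and Clopper-Pearson 95% intervals, ratios of levels exact conditional intervals, and ratios of shares Katz intervals. In comparisons with classes the low side was held at 3 counts. Genes were named by rank: the 10 highest and 10 lowest between libraries, 10 highest and 5 lowest against each class, and 15 highest against all other cells, leaving out predicted and mitochondrial genes. Some genes chosen this way are not reported here. Of 73 named genes, 40 overlapped another gene of the GENCODE annotation. Cells were clustered with leidenalg 0.10.2. Doublets were scored against simulated doublets by nearest neighbours in place of Scrublet, which could not be run, and 200 control and 155 Mettl3-CKO cells were predicted, 0 and 3 of them members. Doublets were kept in the main results. Python 3.11.15, numpy 2.4.6, scipy 1.17.1 and pandas 2.3.3 were used. The comparison between libraries was run on simulated counts that held counting error only. All 168 genes changed at least 2-fold were called in their direction, and 18 of 1978 unchanged genes were called. The simulated counts had no spread between cells, so they cannot check calls that rest on few members. Promoter sequences were taken from RefSeq (GRCm38.p6).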

Additional observations from a re-analysis of the deposited data

Results flagged for a closer look

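Genes are given here when members were on opposite sides of a comparison class in the libraries, as the fold of the member level over the class level. With 1 library per group none of these differences between the libraries was tested. Against Nrl/Nr2e3 cells, the cone arrestin gene Arr3 went from 2.56 in control to 0.276 in Mettl3-CKO, with all 18 of its control UMIs in 1 member, and the mitotic gene Cenpf from 4.89 to 0.252, with 19 of 20 control UMIs in 1 member. In the same comparison Dot1l went from 0.655 to 1.34, the histone mRNA binding gene Slbp from 1.36 to 0.649, and Virma, a subunit of the m6A writer complex, from 0.579 to 1.44. Virma had 14 UMIs in 10 control members and 37 in 29 Mettl3-CKO members. Against bipolar cells, Car2 went from 0.665 to 1.88, with members at 169 and 125 CPM and bipolar cells at 254 and 66.5 CPM, Gnb3 from 0.832 to 1.46, with members at 697 and 777 CPM and bipolar cells at 838 and 532 CPM, and Platr17 from 0.642 to 2.05. The p53 target Cdkn1a went from 14.3 to 0.371 against bipolar cells and from 11.8 to 0.388 against neurogenic cells. Members held 29 Cdkn1a UMIs in each library, 49.1 and 52.6 CPM. The control UMIs came from 3 members, 18 of them from 1 cell, and the Mettl3-CKO UMIs from 12 members, 12 of them from 1 cell. Bipolar cells were at 3.42 and 142 CPM of Cdkn1a and neurogenic cells at 4.17 and 135.5 CPM. The bipolar class also differed between the libraries in genes that chose it, with Grm6 at 265 and 35.4 CPM. Its Grik1 was at 290 and 297 CPM. Zfp292 went from 1.42 to 0.6545 against neurogenic cells, with members at 376 and 405 CPM and neurogenic cells at 264 and 618 CPM.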

How the results depend on the processing

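No paired analysis was possible because each group had 1 library. Requiring 3 of the 5 markers gave a share ratio of 1.64, 19 genes higher and 23 lower in Mettl3-CKO, a log2 ratio of 1.10 for Hist1h2ae, and 110 genes higher than in bipolar cells. Without the 5% of cells with the most UMIs Hist1h2ae was at 0.034. Mettl3-CKO members without Xist gave 23 genes higher, and Tsix at −0.25. With at least 30 UMIs and no limit on the share of cells, 462 genes were higher and 427 lower of 5981, and at 2-fold 6 and 7. Settings chosen after seeing the data were the members of single clusters, the members without cells of 5 or more G2/M genes, and those with 2 markers other than Pcp2. Members of cluster 4 gave 15 genes higher and 32 lower, Gngt1 at −1.36, Hist1h2ae at 0.40, Opn1sw against control bipolar cells at −1.43 and Cited1 against Mettl3-CKO neurogenic cells at −0.031. Members of cluster 1 gave 14 higher and 13 lower, Gngt1 at −0.57, Parp6 at 0.46, Nol4 at 0.85, Hist1h2ae at 0.17, Opn1sw at −0.32, and 263 genes lower than in Nrl/Nr2e3 cells. The cause of these changes was not tested, although fewer members also leave fewer genes above the count minimum. The other 68 values of shares and gene counts stayed within 1.5 times or within their interval. Among values of single genes, 72 against classes and 26 between libraries were counted as moved, and 527 and 193 as the same. A further 3 and 9 turned direction. Of the list medians, 6 moved and 174 stayed the same. With 1 pool per group, spread between animals is unknown, and low counts limit genes seen in few members.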
